A study of Mus musculus with 8 samples.

Results

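In epididymal white adipose tissue, the visceral fat pad beside the epididymis, 32 genes of cholesterol synthesis, uptake and efflux were compared between wild-type mice and mice labelled as knockouts of Rev-erb alpha, the clock repressor encoded by Nr1d1. The members were a list of genes named by function, and each was read from the array row whose annotation gave its symbol alone, using the row with the highest mean where a gene had several. Of the 32 members, 30 had such a row, among 19310 genes measured in all. Acat2, which encodes an acetyl-CoA acetyltransferase, and Soat1, which encodes the enzyme that esterifies cholesterol for storage, were not analysed here. Of the measured members, 16 encode enzymes of synthesis, 5 regulators and 9 proteins of transport, storage and efflux.

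All 8 samples came from male C57BL/6 mice aged 12 to 15 weeks, kept on a standard diet in cycles of 12 h light and 12 h dark, and tissue was taken at Zeitgeber time 10, in hours after lights on. The groups differed in the labelled genotype, WT in 4 samples and Rev-erb alpha KO in 4. How the knockout allele was made, whether it acts in the whole body, and whether each sample is 1 mouse or a pool is not given in the sources used here. The p-values therefore speak only for the spread among these samples, which may be technical. RNA was hybridised to a whole-transcript Affymetrix array, and values are deposited log2 expression values, on which a difference of 1 is a doubling.

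Array medians lay between 5.92 and 5.98 log2 over the rows tested, and the number of arrays limits the precision. Of the mature adipocyte markers, the dimmest row, Cebpa, averaged 10.24 log2, and of 5 markers of epididymis or testis the brightest, Defb20, averaged 5.20. Rows of different genes respond differently and no detection limit was used, so these levels do not settle the tissue. Nr1d1 itself ranged from 9.11 to 9.83 in wild type and from 8.80 to 9.56 in the arrays labelled as knockout (log2 fold change −0.26, limma adjusted p = 0.479). Whether its row lies in the deleted part is not known, so it checks nothing, and the group is called knockout-labelled. The clock gene Arntl, a target that Rev-erb alpha represses, was 3.61-fold higher (adjusted p = 3.20e-05). Knockout-labelled arrays 1 and 2 (12.8 and 10.7) and arrays 3 and 4 (−11.4 and −5.91) lay apart on the principal component with the second largest variance, 14.7% of the total. Wild-type array 1 (−9.93) also lay apart there from the other wild-type arrays (−0.43 to 2.42), so values are given by array.

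Cells make cholesterol from acetyl-CoA through mevalonate and squalene, and the genes of this route are switched on by the transcription factor SREBP2, product of Srebf2. When membrane cholesterol is high, INSIG proteins hold SREBP2 and its escort SCAP in the endoplasmic reticulum, and synthesis falls. Oxysterols activate the LXR receptors, which raise the efflux pumps ABCA1 and ABCG1. Fat is a large store of free cholesterol, held around the lipid droplets of adipocytes, and in mouse liver Insig2 has been described as a gene under control of Rev-erb alpha.

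The promoters of the members that passed the test below are shown first, as far as the RefSeq promoter table (GRCm38.p6) held them, because they show which of the sterol-response letters lie at each gene. The table held windows for 25 of the 32 members, each from 250 bases before to 50 after a start. The 250 bases before the start are printed 5′ to 3′ on the gene's strand, at chr13:119690101-119690350 (plus strand) for Hmgcs1, chr1:121332590-121332839 (minus strand) for the window of Insig2 that holds CCAAT, and chr4:53159896-53160145 (minus strand) for Abca1. Capitals mark matches to the motifs searched. The promoter table also held windows of Insig2 at other starts, and no motif matched in those.
Hmgcs1: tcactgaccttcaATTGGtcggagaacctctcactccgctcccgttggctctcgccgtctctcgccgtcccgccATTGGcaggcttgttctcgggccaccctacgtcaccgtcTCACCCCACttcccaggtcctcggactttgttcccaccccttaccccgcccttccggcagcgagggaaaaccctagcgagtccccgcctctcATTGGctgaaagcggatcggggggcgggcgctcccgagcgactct
Insig2: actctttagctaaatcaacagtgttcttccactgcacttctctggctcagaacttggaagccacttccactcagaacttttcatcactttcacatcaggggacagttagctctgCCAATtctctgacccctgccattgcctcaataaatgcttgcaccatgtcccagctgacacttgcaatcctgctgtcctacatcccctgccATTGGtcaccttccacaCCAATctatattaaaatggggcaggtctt
Abca1: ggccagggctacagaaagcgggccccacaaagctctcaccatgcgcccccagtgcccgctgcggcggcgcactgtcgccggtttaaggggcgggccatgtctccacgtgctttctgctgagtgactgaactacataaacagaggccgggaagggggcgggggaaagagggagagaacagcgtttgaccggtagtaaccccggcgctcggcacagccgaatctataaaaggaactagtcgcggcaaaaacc

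Hmgcs1 alone, among the members with a window, matched a looser form of the sterol regulatory element. Its capitals TCACCCCAC, from −137 to −129 relative to the start, match TCACNCCAC, a looser form of the element to which SREBP proteins bind. This form was found in 1.24% of all 32851 windows and in no other of the 25 members with a window. A stricter form, which adds a leading A and takes the free letter as C, was in 0.0913% of all windows and in 0 member windows. Near matches were not counted, such as ATCACCCCAT in the Srebf2 window, which differs from the stricter form in its last letter. The 7 members without a window, Fdps, Fdft1, Sqle, Stard4, Npc1, Abcg1 and Scarb1, could not be searched. The other capitals in the Hmgcs1 and Insig2 windows are CCAAT, or ATTGG where it lies on the opposite strand, the box bound by NF-Y, a factor that works beside SREBP at many sterol genes. At least 1 such box stood in the windows of 21 of the 25 members, 84% of them, and of 41.1% of all 27025 genes in the table. A gene with several windows counted if any of them matched. By window, the box was in 21 of 33 member windows, beside 37.4% of all windows. None of the motifs, as spelled here, matched in the Abca1 window. The LXR element known as DR4 was searched only as an exact spaced direct repeat of AGGTCA. That repeat was in 0 member windows and 0.0152% of all windows. Forms with other letters were not searched, so its absence does not show that the Abca1 window, or any other, lacks an LXR element. TAGGTCA, the core site of Rev-erb and ROR receptors, was in windows of Dhcr7 alone among members and in 2.61% of all windows. All motifs were searched on both strands, and a match is a run of letters, not a binding site.

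Hmgcs1, Abcg1 and Insig2 rose in knockout-labelled fat and Abca1 and Scarb1 fell. These were 5 of the 30 measured members (16.7%), 3 higher and 2 lower, at a limma adjusted p under 0.05 with Benjamini-Hochberg adjustment over all rows. The background was 7.50% of all genes, 3.89% higher and 3.61% lower. The groups did not overlap in 7 members (15.5% of all genes), 4 higher (7.29%) and 3 lower (8.26%): beside the 5 that passed, Sc5d lay higher and Pmvk lower in every knockout-labelled array. The median log2 fold change of the 30 members was −0.01, as it was over all genes, with 15 above 0 and 15 below. The median size of the change was 0.12 in members and 0.08 over all genes. In bulk tissue, fewer cells of a type and less RNA per cell cannot be told apart.

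**Figure D1:**
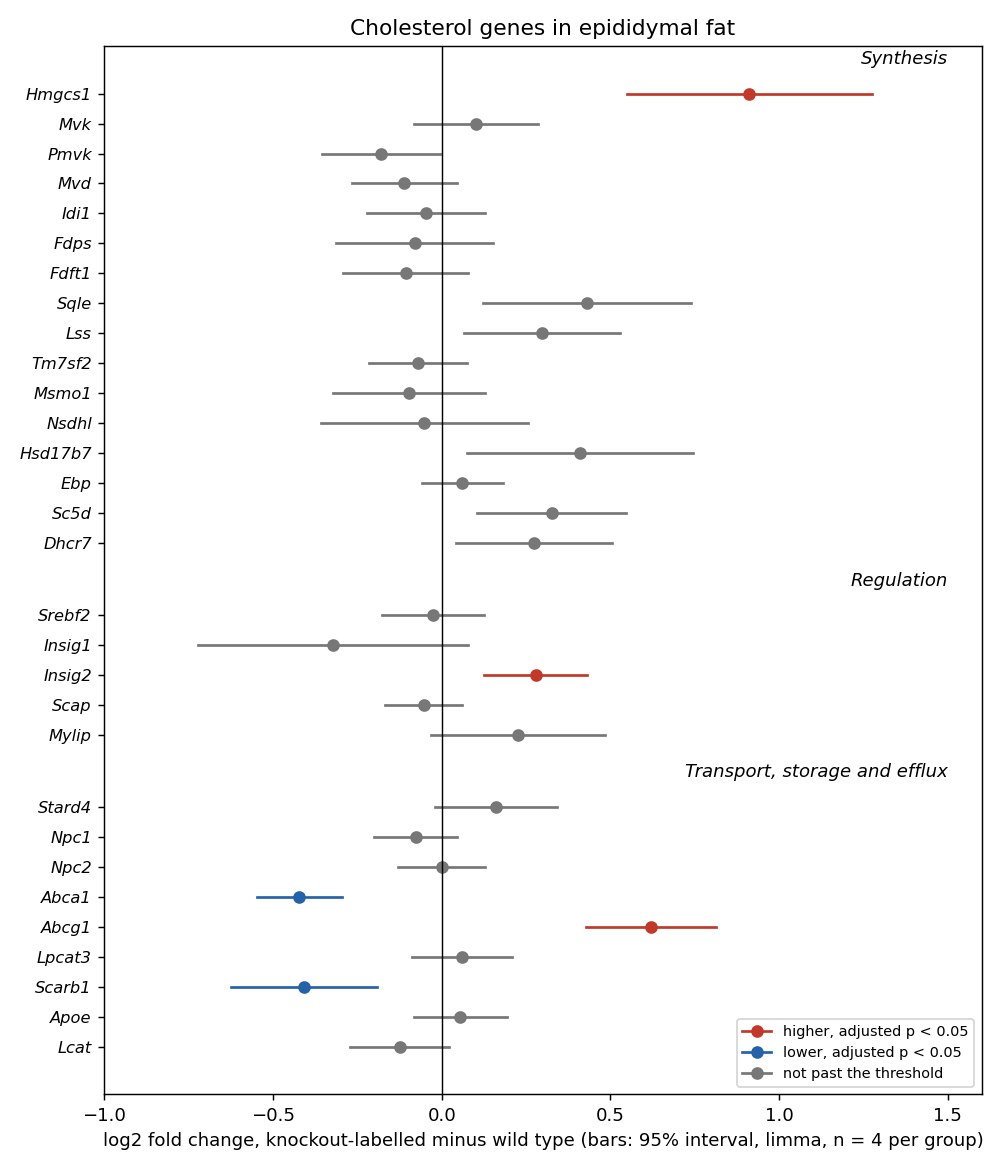
Log2 fold change of each measured member, knockout-labelled minus wild type (x axis), with its 95% interval from limma (n = 4 arrays per group), members in pathway order by role (y axis). Hmgcs1, at 0.91, lies farthest from 0, Abcg1 and Abca1 lie on opposite sides, and most grey intervals, of members that did not pass, cross 0.

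Hmgcs1 encodes the cytosolic HMG-CoA synthase, which works at the start of the pathway. It read 8.23, 8.59, 8.84 and 8.32 log2 in wild-type arrays 1 to 4 and 9.24, 9.05, 9.69 and 9.65 in knockout-labelled arrays 1 to 4. The groups did not overlap, and knockout-labelled arrays 3 and 4 were the highest. The mean went from 8.50 ± 0.28 to 9.41 ± 0.31 (SD, n = 4 each), a 1.88-fold rise (log2 fold change 0.91, SE 0.16, limma adjusted p = 0.00862). It passed whichever array was left out, at 0.82 to 1.03.

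The other measured enzymes between HMG-CoA and squalene did not pass. Mvk, mevalonate kinase, was at 0.10 log2 fold change, and Pmvk, Mvd, Idi1, Fdps and Fdft1, which phosphorylate, decarboxylate, isomerise and condense the isoprenoid units into squalene, were at −0.18, −0.11, −0.05, −0.08 and −0.11. Their adjusted p-values ran from 0.214 to 0.794. Pmvk, shown by array after its values were seen, read 6.52, 6.47, 6.81 and 6.48 in wild type and 6.40, 6.46, 6.31 and 6.40 in knockout-labelled arrays. Its groups just failed to overlap, with the nearest arrays at 6.47 and 6.46. Idi1 and Fdft1 had a second row each, at 0.03 and −0.22, which did not pass either. In total 1 of 16 synthesis enzymes passed (6.25%), a share near the background of 7.50%.

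Of the 9 enzymes after squalene, 0 passed over all rows in limma, and 5 had an unadjusted p under 0.05, all with higher knockout-labelled means, beside 21.8% of all genes at that unadjusted threshold in either direction. Sqle encodes squalene epoxidase, which starts this stretch. It read 6.29, 6.04, 6.19 and 6.00 in wild type and 6.40, 6.24, 6.98 and 6.62 in knockout-labelled arrays. Knockout-labelled array 3 was the highest, and array 2 lay within the wild-type range (log2 fold change 0.43, SE 0.14, adjusted p = 0.0934). Lss encodes lanosterol synthase, which closes the sterol rings. It read 6.55, 6.56, 6.79 and 6.55 in wild type and 7.10, 6.62, 7.06 and 6.87 in knockout-labelled arrays, where array 2 again overlapped wild type (0.30, SE 0.10, adjusted p = 0.122).

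Sc5d, which encodes the sterol desaturase acting just before Dhcr7, read 9.88, 9.74, 9.93 and 9.55 in wild type and 9.97, 9.97, 10.31 and 10.15 in knockout-labelled arrays. The groups did not overlap, but the difference did not pass (0.33, SE 0.10, adjusted p = 0.0781). Hsd17b7, a ketosteroid reductase of the demethylation steps, was at 0.41 (adjusted p = 0.140), and Dhcr7, the reductase of the last step, at 0.27 (adjusted p = 0.153). The sterol isomerase gene Ebp was at 0.06, and Tm7sf2, Msmo1 and Nsdhl, whose enzymes reduce or demethylate lanosterol products, were at −0.07, −0.10 and −0.05.

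The readings after squalene differed by array. The median deviation of these 9 genes from their wild-type means was 0.14, 0.00, 0.44 and 0.25 log2 in knockout-labelled arrays 1 to 4, and −0.09 to 0.11 in wild-type arrays. Over all genes it lay between −0.02 and 0.00 in every array. Knockout-labelled array 3 held the highest value of the 8 arrays for 9 of 16 synthesis enzymes, against 15.8% of all genes. Knockout-labelled arrays 2 and 4 and wild-type arrays 1 and 4 held it for 0 of 16, against 9.39% to 13.8% of all genes. Without knockout-labelled array 2, Sqle (0.54, adjusted p = 0.0375), Lss (0.39, 0.0245) and Dhcr7 (0.37, 0.0280) passed, Insig2 did not, and the count of members called higher went from 3 to 5. Array 2 was the lowest knockout-labelled array for Sqle, Lss and Dhcr7, so leaving it out raises their changes. Omitting any other single array let none of Sqle, Lss and Dhcr7 pass (limma adjusted p up to 0.204, 0.257 and 0.306). Without knockout-labelled array 3, Sqle was at 0.29 (adjusted p = 0.147). The median log2 fold change was 0.27 after squalene and −0.08 for the 7 measured enzymes before it, a difference that was not tested.

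**Figure D2:**
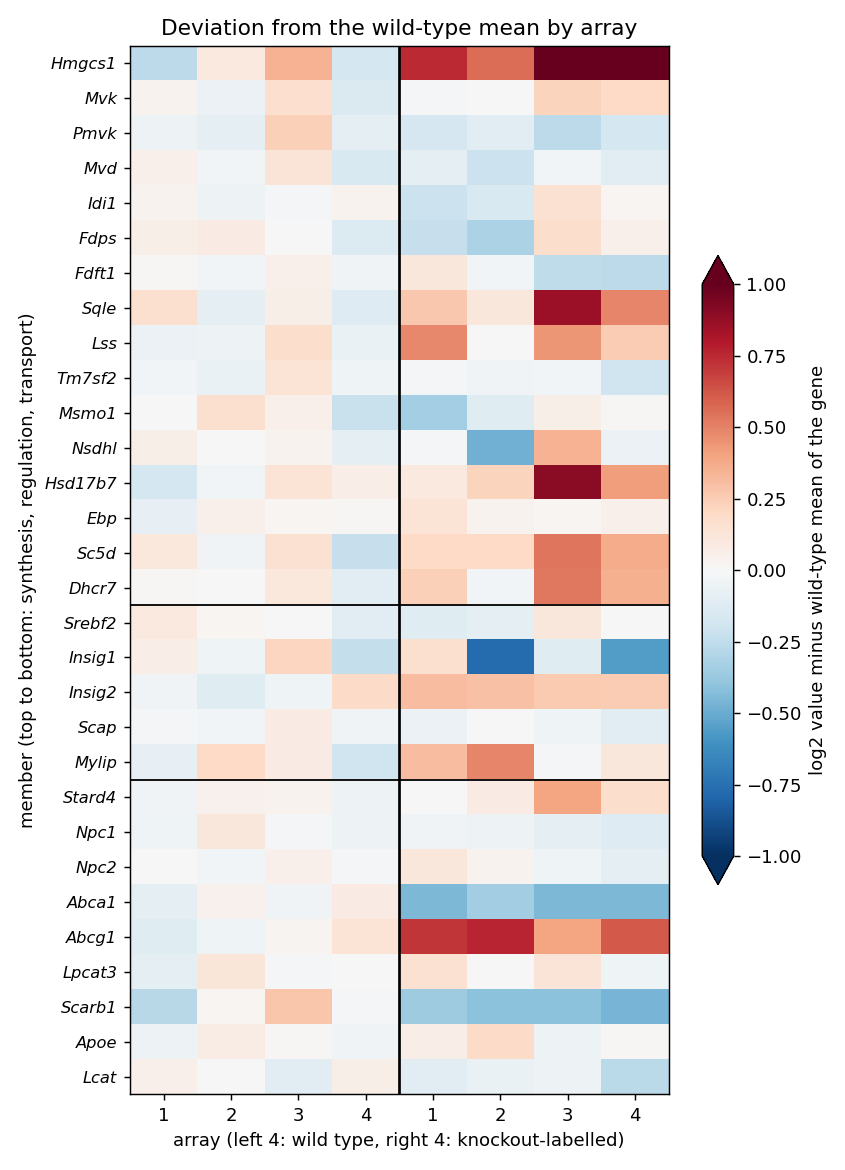
Each square is the log2 value of a member (rows) in an array (columns, wild type left of the line and knockout-labelled right) minus the wild-type mean of that gene. Knockout-labelled array 3 is the deepest red for Sqle, Hsd17b7, Sc5d and Dhcr7, while Abca1 and Scarb1 are blue and Abcg1 and Insig2 red in all 4 knockout-labelled arrays.

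Among the regulators Insig2 rose and the others did not pass. Insig2 encodes an anchor that keeps SREBP and SCAP in the endoplasmic reticulum. It read 8.35, 8.27, 8.34 and 8.58 in wild type and 8.69, 8.68, 8.65 and 8.64 in knockout-labelled arrays. The knockout-labelled arrays lay close together and all above wild type, with wild-type array 4 the nearest to them. The rise was 1.21-fold, from 8.39 ± 0.14 to 8.66 ± 0.03 (SD, n = 4 each; log2 fold change 0.28, SE 0.07, limma adjusted p = 0.0348). Omitting any array other than wild-type array 4 ended the call (adjusted p 0.0700 to 0.0905), as did quantile normalization (0.0518).

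Insig1, the paralog that SREBP itself induces, varied most among the regulators. It read 9.77, 9.67, 9.92 and 9.47 in wild type and 9.87, 8.93, 9.59 and 9.15 in knockout-labelled arrays. Arrays 2 and 4 of the knockout-labelled group lay below every wild-type array and arrays 1 and 3 within the wild-type range, so the groups overlapped (log2 fold change −0.32, 95% interval −0.72 to 0.08, adjusted p = 0.340). Mylip, a ubiquitin ligase induced by LXR that limits lipoprotein uptake, read 8.11, 8.39, 8.28 and 7.995 in wild type and 8.51, 8.68, 8.18 and 8.31 in knockout-labelled arrays. Its arrays 1 and 2 were above wild type and arrays 3 and 4 were not (0.23, interval −0.03 to 0.48, adjusted p = 0.294).

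The genes for SREBP2 and its escort differed little. Scap read 7.90, 7.90, 8.005 and 7.88 in wild type and 7.86, 7.91, 7.88 and 7.81 in knockout-labelled arrays (−0.05, interval −0.17 to 0.06, adjusted p = 0.611). Srebf2 was at −0.03 (interval −0.18 to 0.12, adjusted p = 0.873), with wild-type arrays from 7.19 to 7.40 and knockout-labelled arrays from 7.19 to 7.42. Both intervals leave out a change of 1.5-fold in either direction.

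The genes of the sterol pumps changed in opposite directions. Abca1 encodes the pump that loads cholesterol onto lipid-poor apolipoprotein A-I. It read 9.79, 9.92, 9.84 and 9.96 in wild type and 9.43, 9.53, 9.43 and 9.43 in knockout-labelled arrays. Every knockout-labelled array lay below every wild-type array, and it fell 1.34-fold, from 9.88 ± 0.08 to 9.45 ± 0.05 (SD, n = 4 each; log2 fold change −0.42, SE 0.06, limma adjusted p = 0.00186).

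Abcg1 encodes the pump that passes cholesterol to mature HDL. It read 7.21, 7.29, 7.36 and 7.47 in wild type and 8.05, 8.09, 7.72 and 7.95 in knockout-labelled arrays. The groups did not overlap, with knockout-labelled array 3 the nearest to wild type. The rise was 1.54-fold, from 7.33 ± 0.11 to 7.95 ± 0.16 (SD, n = 4 each; 0.62, SE 0.09, adjusted p = 0.00234). Both pumps passed whichever array was left out, Abca1 at −0.45 to −0.40 and Abcg1 at 0.57 to 0.70.

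Scarb1, the receptor for selective uptake of cholesteryl ester from HDL, also fell. It read 8.61, 8.90, 9.16 and 8.86 in wild type and 8.53, 8.48, 8.47 and 8.42 in knockout-labelled arrays. The knockout-labelled arrays lay together below a wider wild-type group, whose array 1 was the nearest to them. The fall was 1.33-fold, from 8.88 ± 0.23 to 8.48 ± 0.04 (SD, n = 4 each; −0.41, SE 0.10, limma adjusted p = 0.0312). Omitting any array other than wild-type array 1 ended the call (adjusted p 0.0507 to 0.0875), while the log2 fold change stayed between −0.50 and −0.32.

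**Figure D3:**
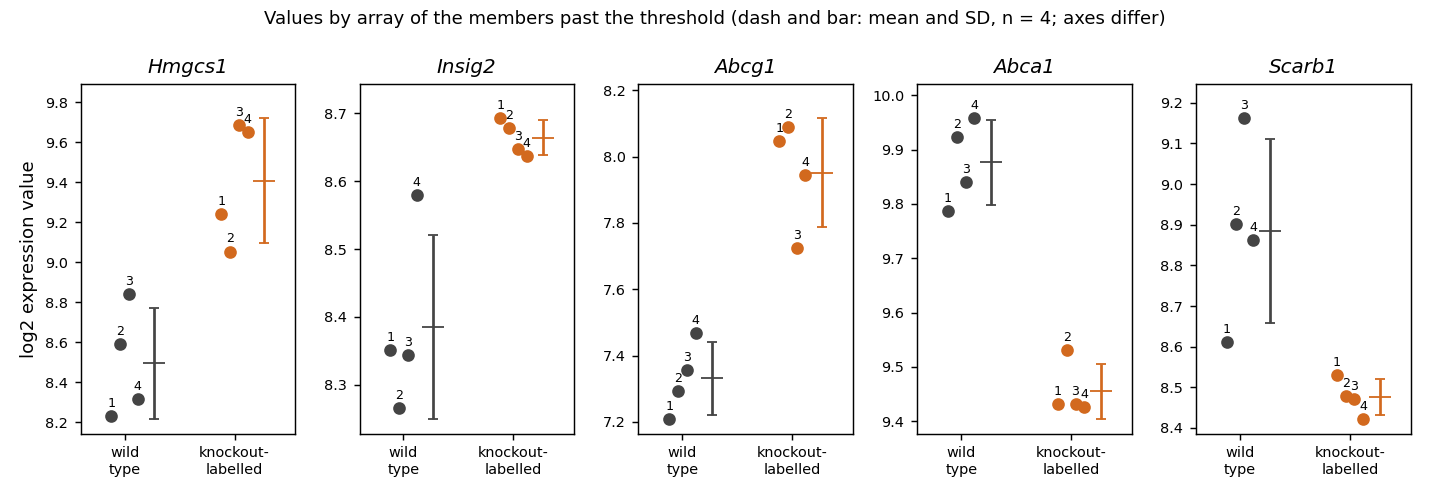
Log2 expression values (y axis, a different range in each panel) of the 5 members that passed, by array number within each group, with the mean and SD (n = 4) beside the points. The groups do not overlap in any panel, and for Hmgcs1 knockout-labelled arrays 3 and 4, at 9.69 and 9.65, lie above arrays 1 and 2.

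The genes that carry cholesterol within the cell did not pass. Stard4, a soluble sterol carrier and SREBP target, read 5.56, 5.63, 5.63 and 5.54 in wild type and 5.58, 5.67, 5.98 and 5.76 in knockout-labelled arrays. Arrays 2, 3 and 4 were above wild type, array 3 the most, and array 1 was not (0.16, interval −0.02 to 0.34, adjusted p = 0.286). Npc1 and Npc2, which together export cholesterol from lysosomes, were at −0.08 (interval −0.20 to 0.05) and 0.00 (−0.13 to 0.13). Lpcat3, an LXR target that remodels membrane phospholipids, was at 0.06 (−0.09 to 0.21), Apoe, the apolipoprotein that accepts cellular cholesterol, at 0.05 (−0.08 to 0.19), and Lcat, which esterifies cholesterol on HDL, at −0.12 (−0.27 to 0.02). Of the 9 measured members of this role 3 passed (33.3%), 1 higher and 2 lower, beside the background of 7.50%.

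Markers of the cell types that hold these genes were read in the same arrays. Over all genes, 3.89% passed as higher and 3.61% as lower. Macrophages use ABCA1, ABCG1 and apolipoprotein E heavily, and of 12 measured macrophage markers 0 passed as higher and 1, Cd14, as lower (−0.38), while 10 of the 12 log2 fold changes were above 0 (median 0.09). Their summed level, given as log2 of the sum, ranged from 11.73 to 12.17 in wild type and from 12.00 to 12.30 in knockout-labelled arrays, so the groups overlapped. Of 6 markers of lipid-laden macrophages Lgals3 was higher (0.53) and the other 5 did not pass. Log2 fold changes were above 0 in 3 and below 0 in 3 (median −0.12), the latter Atp6v0d2 (−0.38), Gpnmb (−0.35) and Trem2 (−0.25). The sums ranged from 9.73 to 10.29 in wild type and from 10.07 to 10.39 in knockout-labelled arrays. Lgals3, the brightest row (mean 9.24 log2), weighs most in them. Of 11 adipocyte markers Lep was higher (0.75) and Cebpa lower (−0.37), while 8 of the 11 log2 fold changes were below 0 (median −0.08). The groups did not overlap in 1 marker that lay higher and 4 that lay lower, beside 7.29% and 8.26% of all genes. The sums were 15.36 to 15.50 in wild type and 15.41 to 15.46 in knockout-labelled arrays, with Retn the brightest row (mean 12.83 log2). The lowest readings among these lists were Atp6v0d2 at 4.89 and Fcgr1 at 5.31 log2, and no detection limit was at hand.

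Vascular and stromal markers were read too, beside the same shares of all genes, 3.89% higher and 3.61% lower. Of 7 smooth muscle and pericyte markers, 2 were higher, Acta2 (0.89) and Rgs5 (0.66), and Tagln was lower (−0.29). The others did not pass: Myh11 (−0.21), Cnn1 (−0.02), Pdgfrb (0.28) and Des (0.16). The sums of 10.98 to 11.28 in wild type and 11.49 to 12.02 in knockout-labelled arrays did not overlap. Bright rows weigh most in a sum, here Acta2 (mean 10.28 log2) and Rgs5, so it largely restates those genes. Of 7 endothelial markers, 2 were higher, Cldn5 (0.99) and Pecam1 (0.20), with sums of 11.44 to 11.66 and 11.66 to 11.90. Of 8 progenitor and fibroblast markers, 3 were higher, Col1a1 (0.71), Pi16 (0.40) and Col3a1 (0.27), and 6 log2 fold changes were above 0. Dcn, the brightest at 12.25 log2, was at −0.14 and did not pass. The sums were 12.80 to 13.01 and 12.88 to 12.99. Of 6 mesothelial markers Msln was higher (0.60) and the other log2 fold changes, none of which passed, lay between −0.23 and −0.09, with sums of 11.23 to 11.42 and 11.14 to 11.38. The part of any of these cell types in the changes of cholesterol genes was not tested.

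Of 39 further genes of cholesterol handling that are not members, 32 were measured and 5 passed (15.6%), 3 higher and 2 lower, beside 7.50% of all genes. Gramd1b encodes a carrier that moves cholesterol from the plasma membrane to the endoplasmic reticulum, where the INSIG proteins sit. It read 7.23, 7.73, 7.44 and 7.12 in wild type and 8.32, 8.16, 8.10 and 7.90 in knockout-labelled arrays, without overlap, and rose 1.67-fold (0.74, SE 0.13, limma adjusted p = 0.00709). The sterol-binding protein gene Osbpl5 rose 1.33-fold (0.41, SE 0.06, adjusted p = 0.00283). Vldlr, a lipoprotein receptor of fat, rose 1.32-fold (0.40, SE 0.10, adjusted p = 0.0336), and omitting any array other than knockout-labelled array 2 ended its call (adjusted p 0.0587 to 0.0955).

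The further genes that fell were Apoc1 and Srebf1. Apoc1, an apolipoprotein gene of the cluster that holds Apoe, read 9.30, 9.92, 9.68 and 9.85 in wild type and 9.002, 8.76, 9.08 and 8.84 in knockout-labelled arrays. Every knockout-labelled array was below wild type, a 1.70-fold fall (−0.77, SE 0.13, limma adjusted p = 0.00570), while Apoe was at 0.05. Srebf1 encodes SREBP1, the sister factor that chiefly drives fatty acid synthesis and is itself an LXR target. It read 8.93, 9.05, 9.22 and 9.04 in wild type and 8.26, 8.14, 8.59 and 8.58 in knockout-labelled arrays, without overlap, a 1.59-fold fall (−0.67, SE 0.11, adjusted p = 0.00524). Nr1h3, which encodes the receptor LXR alpha and was singled out after its value was seen, did not pass (−0.29, SE 0.08, adjusted p = 0.0586).

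**Figure D4:**
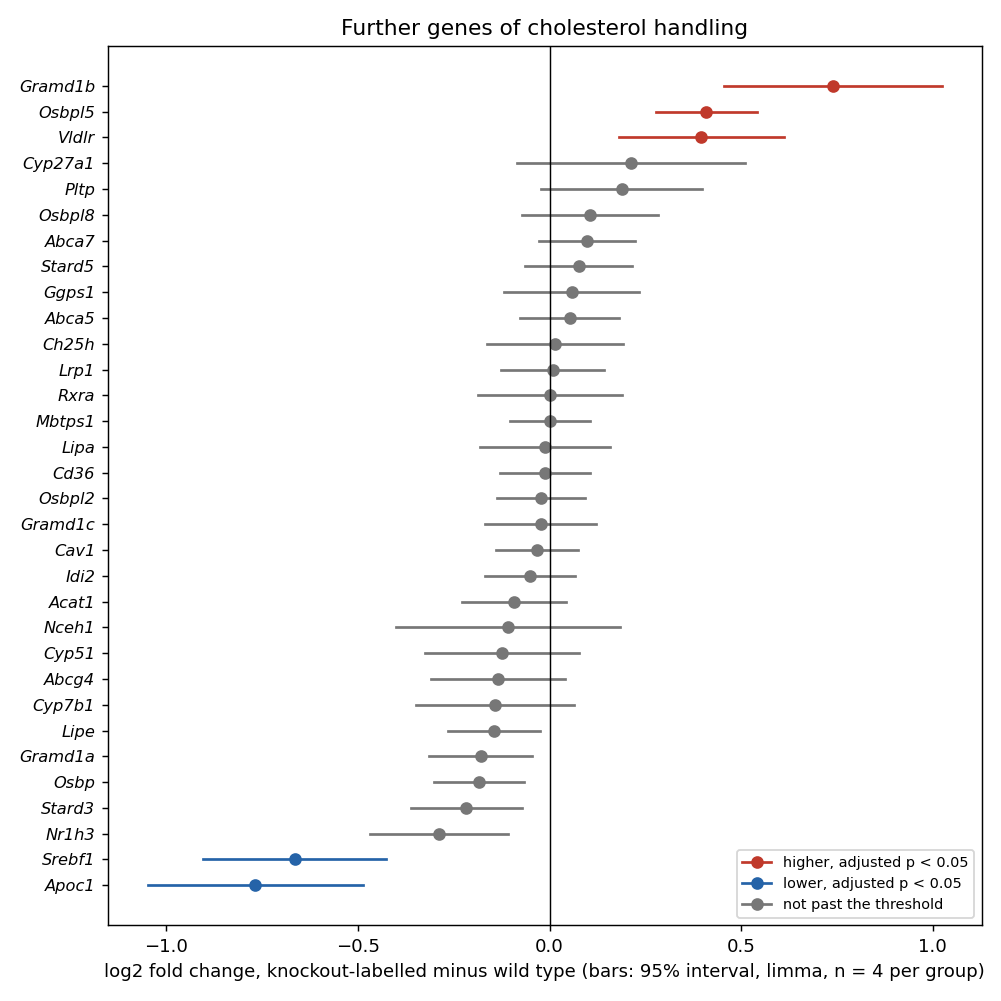
Log2 fold change, knockout-labelled minus wild type (x axis), of 32 further genes of cholesterol handling (y axis, ordered by value), with 95% intervals from limma (n = 4 per group). Gramd1b, Osbpl5 and Vldlr lie to the right and Srebf1 and Apoc1 to the left, at −0.67 and −0.77.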

How the data were processed

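The file holds deposited log2 expression values by array row and sample. The authors' normalization is not given in the sources used here. The submitters' processing notes name affy. The log2 scale was read from the values, 2.09 to 13.4. Of 23346 rows, the platform annotation gave 1 gene symbol to 20748, several to 1183 and none to 1415. Rows with 1 symbol were tested.

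Knockout-labelled and wild-type arrays (4 each) were compared with limma 3.58.1 in R 4.3.3 (lmFit, eBayes, no covariate, no filter on dim rows), two-sided, with Benjamini-Hochberg adjustment over the tested rows and a threshold of 0.05. On simulated data with the same row means and spreads (20748 rows, 200 changed), 78% of changes of 0.5 log2 and 99% of changes of 1 log2 were recovered. The simulated noise was independent between rows, and fewer rows were changed than the 1536 that passed in the data. Changes smaller than 0.5 log2, the size of most member changes, were not simulated, so these shares do not carry over to the members. The members and lists were chosen with earlier results of these data known. Values by array are given for each member that passed and for up to 4 members per role with the smallest p, and further genes are named where called. The labels do not say whether replicate numbers pair the samples, and the main fit used no pairing. Alternatives were quantile normalization, median centring, a filter on the dimmest 33.3% of rows, all rows, trend and robust eBayes, array weights, a replicate block, leaving out each array, other thresholds, the mean of a gene's rows and group medians. Normalization pulls arrays together, which hides any change that most genes share.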

Additional observations from a re-analysis of the deposited data

Results flagged for a closer look

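Among 70 groups of 4 arrays tested (35 genes in 2 groups each), 6 held an array far from the other three by Dixon's gap criterion, which chance alone passes in about 5% of groups. Wild-type array 3 was the high one for Pmvk (6.81 against 6.47 to 6.52 log2 in the others), Lss (6.79 against 6.55 to 6.56), Tm7sf2 (6.00 against 5.79 to 5.82) and Scap (8.005 against 7.88 to 7.90). Knockout-labelled array 4 was low for Tm7sf2 (5.66 against 5.82 to 5.84). Knockout-labelled array 2 was high for Abca1 (9.53 against 9.43 in the others).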

How the results depend on the processing

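Hmgcs1, Abca1 and Abcg1 passed in every one of the 15 alternative fits of their rows. No log2 fold change of the 12 members that the naming rule gives changed sign in any alternative. That rule picks members by small p in the same data, which favours a stable sign. Among the other members, Idi1, Nsdhl, Srebf2 and Npc2 changed sign in some fits. Over all rows, 1536 passed; the count was 2552 at an adjusted p under 0.10, 326 with a 1.5-fold minimum, and 913 to 1418 on omitting single arrays, lowest without wild-type array 3 (972), wild-type array 4 (1004) and knockout-labelled array 4 (913). Members called higher numbered 5 at an adjusted p under 0.10, where Sc5d and Sqle joined, and 2 to 5 with single arrays left out. Members called lower numbered 1 to 2 when single arrays were omitted and 0 with a 1.5-fold minimum in limma, as also at an unadjusted p under 0.05. With the replicate number as a block, 1 member was lower, since Scarb1 did not pass (adjusted p = 0.0521), and Insig2 (0.0741) and, among the further genes, Vldlr (0.0624) were lost while Hsd17b7 passed (0.0490), so 3 were higher and 1105 rows passed. The same-numbered arrays' deviations correlated at −0.07 to 0.13 over rows. Such weak correlations show no strong pairing by number but cannot exclude one, since the labels do not say. The cause of the lost calls was not tested. Dim rows have no bound, since detection calls were not used here.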
